A study of Mus musculus with 3 samples.

Results

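The genes described here are 8 parts of the machinery that releases, breaks down, senses and takes up purines, measured by single-nucleus RNA sequencing (snRNA-seq) in mouse brown adipose tissue (BAT). They are Slc17a9, P2rx5, Adora1, Adora2a, Entpd1, Nt5e, Slc28a2 and Adk, found by symbol among 21214 gene columns that all 3 libraries shared. Slc17a9 and Slc28a2 were chosen by their own pattern in these libraries, that is, by their levels across nucleus classes and conditions, so these levels are given as a description and support nothing; the other 6 were added as genes of the same pathway. All tissue came from adult C57Bl6 mice (C57BL/6J in the study's methods) of WT genotype. One library was from untreated BAT, one from BAT after a sham operation and one from BAT after denervation, which cuts the sympathetic nerves that drive heat production. Per the study's methods the untreated and denervated libraries each pooled nuclei of 20 male mice of 8 weeks, taken from the floating layer of digested BAT, which holds adipocytes and fragments of vessels. Denervation was made on one side 3 days before sampling, and tamoxifen was part of that experiment. How the mice of the sham library relate to those of the denervated library is not given in the sources used here. With 1 library per condition there was no replicate and no test. Every interval below is a 95% interval for counting error alone, and pooled mice and separate library preparations cannot be told apart from the conditions.

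ATP that leaves a cell acts on P2X channels and P2Y receptors. CD39, the product of Entpd1, cuts it to AMP, and CD73, the product of Nt5e, cuts AMP to adenosine. Adenosine acts on receptors such as A1 (Adora1), which lowers cyclic AMP and is known to restrain lipolysis in adipocytes, and on Adora2a, whose product raises cyclic AMP. The signal ends when carriers such as CNT2 (Slc28a2) take adenosine into the cell, where adenosine kinase (Adk) turns it back into AMP. In BAT, sympathetic nerves release ATP together with noradrenaline, and purines were studied there for their action on heat production.

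The libraries held 13707 (untreated), 15368 (sham) and 15822 (denervated) barcodes with 14971579, 14725864 and 9420030 unique molecular identifiers (UMIs). After removal of barcodes under 200 detected genes and of doublets, 10403, 11683 and 9637 nuclei were kept, with a median of 1005, 756 and 705 UMIs. Nuclei were clustered within each library without the 8 genes and named "X-like" from marker lists. How list scores became names was decided with the clusters in view, and where values depart from those of the study, the rebuilt names can be the reason. Levels are UMIs per 1000000 UMIs of a class or cluster (CPM). Brown adipocyte (BA)-like nuclei numbered 4752, 3514 and 5142, and endothelial cell (EC)-like nuclei 4759, 5216 and 2089. Pericyte-like, white adipocyte (WA)-like and immune-like nuclei were found in every library, and the smooth muscle-like and Schwann-like names were given only in the sham library. Unnamed clusters of 55 untreated, 48 sham and 106 denervated nuclei scored highest on the fibroblast list, those of the untreated and denervated libraries with the Schwann list next. A denervated cluster of 326 nuclei, with Rsad2, Cmpk2 and Ifit1 among its leading genes, scored highest on the brown list but stayed unnamed and outside the BA-like class. It held Slc17a9 at 525 CPM, P2rx5 at 221 CPM and Slc28a2 at 70.3 CPM. All 11 BA markers were highest in the BA-like class of each library, as were 12, 11 and 12 of 12 EC markers in the EC-like class. The WA-like name was weaker, with 7, 5 and 5 of 8 white markers highest there and summed white markers of 1728, 2224 and 1943 CPM beside summed brown markers of 2083, 1082 and 1230 CPM. Between 251 and 278 barcodes were shared by each pair of libraries, under 2% of any library. The sham immune-like cluster of 63 nuclei also carried endothelial RNA (Flt1 at 1095 CPM against 170 and 164 CPM in the immune-like nuclei of the untreated and denervated libraries), so its values are given for completeness only. The counts come from transcript 3′ ends, are not scaled by length, and so were compared between classes and libraries and not between genes.

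Slc28a2 and Adora2a marked the EC-like nuclei, and Entpd1 was shared by immune-like and EC-like nuclei. P2rx5 and Adora1 were highest in BA-like nuclei, and Adk was highest in WA-like or BA-like nuclei. Nt5e was low in each class as a whole. UMIs of Slc17a9 were found in all classes. In EC-like nuclei and in untreated pericyte-like nuclei, however, about as many or more were expected from background RNA by the measure given below. Genes were called when the level differed at least 2-fold (a log2 ratio of 1) among genes with at least 10 CPM in both groups pooled. BA-like over EC-like, 6 of the 7 members tested passed this in each library, where 45.3% (untreated), 45.0% (sham) and 43.7% (denervated) of all genes tested did. The members' share stood above these, but 2 of them were chosen by this pattern, so nothing is read from the count. Over all genes the median log2 ratio of BA-like over EC-like nuclei was 0.26, 0.16 and 0.20, a shift that is small beside the ratios below.

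**Figure D1:**
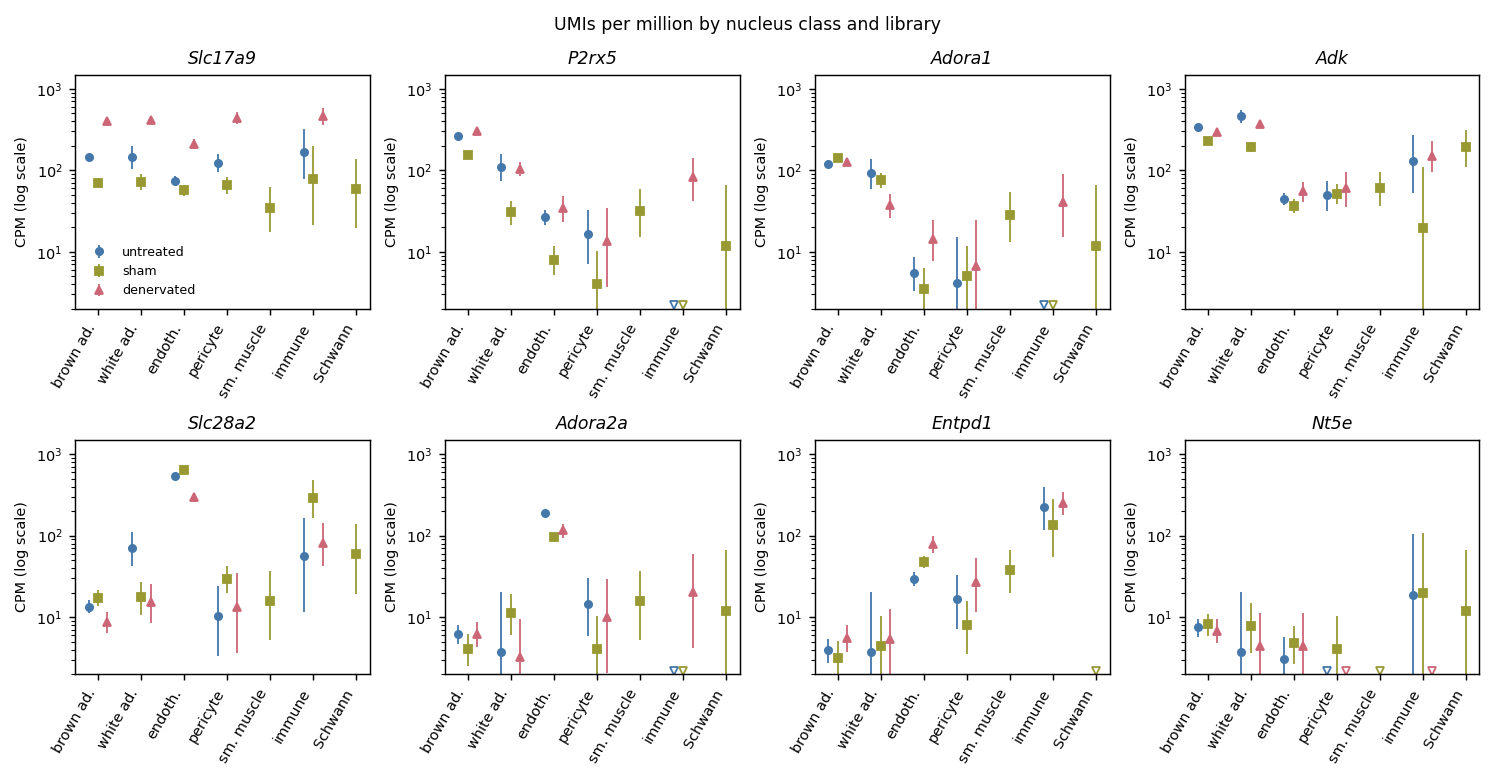
Levels of the 8 genes in each nucleus class (x axis) as CPM on a log scale (y axis), with untreated (circles), sham (squares) and denervated (triangles) libraries side by side. Bars are 95% Poisson intervals and open triangles at the lower edge mark classes with no UMI. P2rx5 and Adora1 stand highest in BA-like nuclei, Slc28a2 and Adora2a in EC-like nuclei, and Slc17a9 is highest in the denervated library in all 5 classes that the 3 libraries share.

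Of the carriers, Slc17a9 encodes VNUT, the transporter that loads ATP into secretory vesicles. The gene lies at chr2:180725263-180742280 (plus strand, GRCm38). In BA-like nuclei it stood at 144 CPM (136 to 152) in the untreated library, 69.7 CPM (62.7 to 77.3) in the sham library and 408 CPM (391 to 426) in the denervated library. A UMI was found in 22.5%, 9.31% and 32.7% of BA-like nuclei. Thinned to 500 UMIs per nucleus, with shallower nuclei left out, these shares were 7.66%, 3.88% and 19.0%, in the same order. WA-like nuclei were alike, at 144, 72.7 and 412 CPM, and the log2 ratio of WA-like over BA-like nuclei lay between 0.001 and 0.06 in the 3 libraries, with intervals that held 0 in each. Pericyte-like nuclei had 125, 65.8 and 438 CPM. Immune-like nuclei had 170, 78.3 and 464 CPM from 9, 4 and 68 UMIs. EC-like nuclei were lower, at 74.6, 56.9 and 213 CPM. In the order of classes within the untreated library, immune-like, WA-like, BA-like and pericyte-like nuclei did not differ beyond their counting intervals, and only the step down to EC-like nuclei did. BA-like over EC-like, the log2 ratio was 0.95 (0.75 to 1.16), 0.29 (0.03 to 0.56) and 0.94 (0.73 to 1.16), so Slc17a9 was the 1 tested member under the fold in all 3 libraries. This turned with the processing. At a minimum of 500 detected genes the ratio was 1.23 untreated and 2.27 denervated, and with classes set from marker UMIs of each nucleus it was 1.05 and 1.20. With background RNA subtracted it was 4.41 in the sham library, where only 5.92 of 179 EC-like UMIs were left. The untreated and denervated libraries gave no value under that setting. Over all alternatives the ratio ran from 0.0002 to 4.41.

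The level of Slc17a9 per UMI depended on how deep a barcode was. Over all barcodes of the untreated library it was 759 CPM below 100 detected genes, 611 CPM from 100 to under 200, 164 CPM from 200 to under 500 and 112 CPM from 500 to under 1000. In the denervated library the same bins gave 854, 620, 430 and 418 CPM. In the sham library they gave 89.1, 77.5, 64.1 and 67.8 CPM, a narrower range. Sham BA-like nuclei, however, had 119 CPM (21 UMIs) from 200 to under 500 genes against 69.3 and 67.4 CPM in the next bins. Shallow barcodes of the untreated library were thus as rich in Slc17a9 as those of the denervated library, and its deeper nuclei were not. Within BA-like nuclei of 200 to under 500 detected genes the untreated and denervated libraries had 549 and 564 CPM, a log2 ratio of 0.04 (−0.31 to 0.41). From 500 to under 1000 genes they had 161 and 440 CPM (log2 ratio 1.45, 1.26 to 1.65), and from 1000 to under 2000 genes 132 and 296 CPM (1.16, 1.002 to 1.32). Denervated over sham, the log2 ratio in the same 3 bins was 2.25, 2.67 and 2.14.

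**Figure D2:**
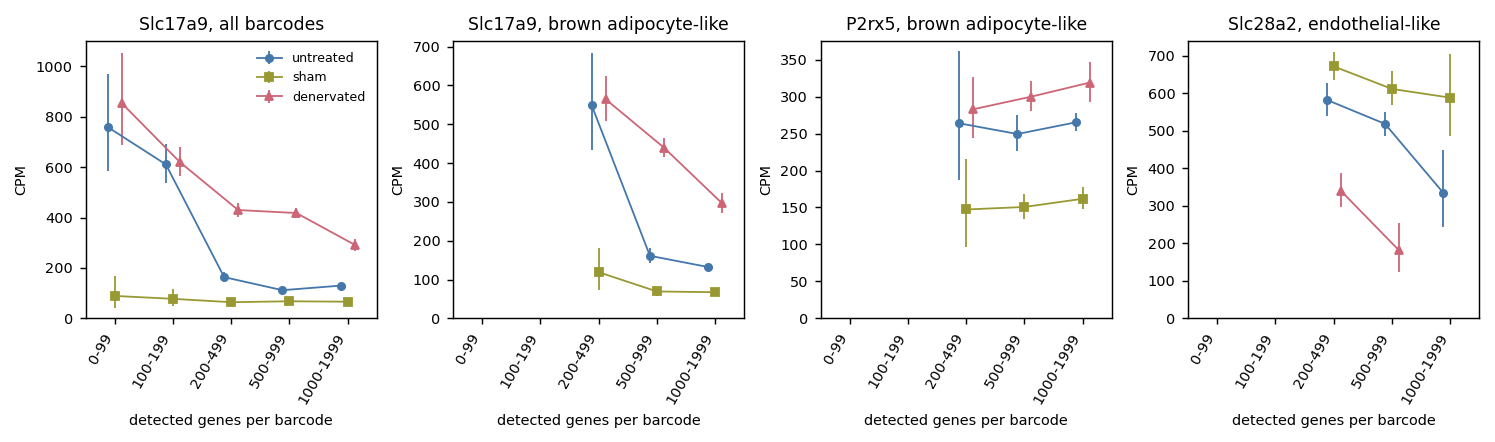
CPM (y axis, from 0) against the number of detected genes of a barcode in bins (x axis) for Slc17a9 in all barcodes and in BA-like nuclei, P2rx5 in BA-like nuclei and Slc28a2 in EC-like nuclei, with 95% Poisson intervals. Slc17a9 falls with depth in the untreated and denervated libraries and lies between 64.1 and 89.1 CPM over all sham barcodes of under 1000 genes, with sham BA-like nuclei at 119 CPM in their shallowest bin and 67.4 to 69.3 CPM in the next, whereas P2rx5 in BA-like nuclei stays level with depth in each library.

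Slc28a2, the second carrier, encodes CNT2, which uses the sodium gradient to bring adenosine, guanosine and inosine into the cell. It lies at chr2:122426477-122461137 (plus strand). A near copy, Gm14085, starts 23804 bases downstream and held 0 to 7 UMIs in any class. How reads that match both genes were counted was not tested. In EC-like nuclei Slc28a2 stood at 534 CPM (509 to 559), 644 CPM (616 to 672) and 294 CPM (260 to 332) in the untreated, sham and denervated libraries. A UMI was found in 25.5%, 27.3% and 11.2% of EC-like nuclei. Thinned to 500 UMIs, the share was 19.95%, 24.2% and 9.98% of the 3098, 2652 and 511 nuclei that were deep enough. BA-like nuclei had 13.5, 17.3 and 8.74 CPM, with thinned shares of 0.607%, 0.896% and 0.369%. BA-like nuclei held 117, 89 and 46 Slc28a2 UMIs, fewer than the 192.6, 116.5 and 86.15 expected from background RNA by the measure given below, whose part was not tested. WA-like nuclei had 70.3, 17.5 and 15.3 CPM from 19, 20 and 14 UMIs. Their log2 ratio over BA-like nuclei was 2.39 (1.60 to 3.09), 0.02 (−0.76 to 0.73) and 0.81 (−0.17 to 1.70). The untreated UMIs came from 11 of 168 WA-like nuclei. Summed endothelial markers stood at 951, 655 and 513 CPM in WA-like nuclei and 411, 419 and 361 CPM in BA-like nuclei. Their part in these ratios was not tested. Pericyte-like nuclei had 10.4, 29.4 and 13.5 CPM from 5, 29 and 4 UMIs. The log2 ratio of BA-like over EC-like nuclei was −5.31 (−5.59 to −5.04), −5.22 (−5.54 to −4.91) and −5.07 (−5.56 to −4.62).

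RefSeq windows around gene starts (GRCm38.p6) were at hand for 5 of the 8 genes: Slc28a2, Adora1, Entpd1, Nt5e and Adk. They were searched on both strands for AGGAAGT, a core that ETS factors of endothelial cells bind, and for AGGTCA, the core site of nuclear receptors that act in adipocytes. Both begin with AGG, and neither holds the other. AGGAAGT was found within 250 bases upstream of a start in 7.69% of all 32851 mouse windows, and AGGTCA in 14% of them. The upstream window of Slc28a2 held AGGAAGT in 2 places, once on each strand, and that of Adora1 held it once. The 172 bases of the Slc28a2 window before the first RefSeq start of the gene (chr2:122426185-122426356) held no match. Both Slc28a2 matches lie after that start and are upstream only of the later start on which the window was set. The second window of Adora1 and the windows of Entpd1, Nt5e and Adk did not, and none of the 5 genes had AGGTCA. The matches are shown because Slc28a2 was read in EC-like and Adora1 in adipocyte-like nuclei, and both held the motif. Capitals mark the motif or its reverse complement, 5′ to 3′ on the strand of the gene.
Slc28a2, chr2:122426355-122426383, plus strand: acctacataaaAGGAAGTcttctggggga
Slc28a2, chr2:122426399-122426427, plus strand: tggcctgcttcACTTCCTgctgctggtga
Adora1, chr1:134235458-134235707, minus strand: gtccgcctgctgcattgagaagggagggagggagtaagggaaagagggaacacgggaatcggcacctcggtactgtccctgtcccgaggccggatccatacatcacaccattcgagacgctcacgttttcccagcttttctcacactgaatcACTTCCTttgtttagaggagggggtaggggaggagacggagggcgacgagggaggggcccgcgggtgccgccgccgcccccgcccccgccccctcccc
A match is a run of letters and not a measured binding site.

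Of the receptors, P2rx5 encodes an ATP-gated cation channel of brown and beige adipocytes (chr11:73160421-73172685, plus strand). BA-like nuclei held 262 CPM (251 to 272) untreated, 156 CPM (146 to 168) sham and 304 CPM (290 to 319) denervated. WA-like nuclei held 111, 30.7 and 105 CPM, that is, log2 ratios of WA-like over BA-like nuclei of −1.24 (−1.81 to −0.72), −2.35 (−2.88 to −1.86) and −1.54 (−1.85 to −1.24). EC-like nuclei had 26.4, 7.95 and 34.2 CPM and pericyte-like nuclei 4.05 to 16.6 CPM. P2rx5 was thus highest in BA-like nuclei in each library, and the step to the next class exceeded the counting interval in each. Unlike Slc17a9, its level within BA-like nuclei was flat over depth, at 264, 249 and 265 CPM in the untreated bins from 200 to under 2000 detected genes.

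Adora1 (chr1:134199223-134235431, minus strand, overlapping Mybph on the other strand) differed little over libraries in BA-like nuclei. BA-like nuclei held 121 CPM (114 to 129), 141 CPM (131 to 152) and 128 CPM (119 to 139). WA-like nuclei held 92.5, 76.2 and 37.1 CPM, so that WA-like over BA-like the log2 ratio was −0.39 (−1.02 to 0.18), −0.89 (−1.22 to −0.56) and −1.79 (−2.33 to −1.29). EC-like nuclei had 5.52, 3.50 and 14.3 CPM and pericyte-like nuclei 2 to 5 UMIs. Denervated immune-like nuclei held 40.95 CPM (6 UMIs), near the WA-like level there, and sham smooth muscle-like nuclei 28.6 CPM (9 UMIs). Summed brown markers stood at 1283 CPM in the former and 1759 CPM in the latter, and their part in these Adora1 values was not tested. The log2 ratio of BA-like over EC-like nuclei was 4.45, 5.33 and 3.16 for Adora1 and 3.31, 4.30 and 3.15 for P2rx5. For Adora1 it ran from 2.96 to 10.63 over the alternatives in the 3 libraries. Of 11 sham EC-like Adora1 UMIs, 10.82 were expected from background RNA by the measure given below.

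Adora2a (chr10:75316877-75334784, plus strand) showed the opposite layout. EC-like nuclei held 190.3 CPM (176 to 206), 97.02 CPM (86.4 to 109) and 116 CPM (94.7 to 140), and BA-like nuclei 6.21, 4.08 and 6.27 CPM. The log2 ratio of BA-like over EC-like nuclei was −4.94 (−5.37 to −4.54), −4.57 (−5.29 to −3.93) and −4.21 (−4.82 to −3.63). Pericyte-like nuclei had 3 to 7 UMIs. The 2 adenosine receptors of opposite action on cyclic AMP were therefore read in different classes, Adora1 in adipocyte-like and Adora2a in EC-like nuclei. Of the remaining pair, Adora2b had a column in the sham and denervated libraries only, with at most 4 UMIs in a class, and no library had a column for Adora3.

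Of the enzymes outside the cell, Entpd1 (chr19:40612366-40741602, plus strand) was highest in immune-like nuclei, at 226 CPM (117 to 395) untreated and 253 CPM (178 to 348) denervated, from 12 and 37 UMIs. The sham value was 137 CPM from 7 UMIs. EC-like nuclei held 29.5 CPM (23.9 to 36.0), 47.7 CPM (40.4 to 56.0) and 78.3 CPM (61.1 to 98.7), and BA-like nuclei 3.91, 3.11 and 5.51 CPM. Nt5e (chr9:88327197-88372092, plus strand) was near the floor, with 7.47, 8.16 and 6.84 CPM in BA-like nuclei and 3.07, 4.77 and 4.41 CPM in EC-like nuclei. It was at 0 in pericyte-like nuclei of 2 libraries, where a count of 0 allows up to 6.24 CPM (untreated) and 10.1 CPM (denervated). No class rich in Nt5e was seen at this depth. Fibroblasts, known for CD73, were not among the named clusters, and only the small unnamed clusters of 55, 48 and 106 nuclei scored highest on their list.

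Adk, the kinase that traps adenosine inside the cell (chr14:21052574-21448569, plus strand), stood at 344 CPM (331 to 356), 230 CPM (217 to 244) and 296 CPM (282 to 312) in BA-like nuclei. WA-like nuclei held 462, 194 and 367 CPM, a log2 ratio over BA-like nuclei of 0.43 (0.16 to 0.69), −0.24 (−0.46 to −0.03) and 0.31 (0.13 to 0.48), so the order of the adipocyte classes turned in the sham library. EC-like nuclei held 44.2, 36.6 and 55.1 CPM and pericyte-like nuclei 49.9, 51.6 and 60.6 CPM. Immune-like nuclei held 132, 19.6 and 150 CPM, and sham Schwann-like nuclei 191 CPM, near the sham WA-like level. Slc28a2, which was chosen by its pattern, was thus highest in EC-like nuclei and Adk in an adipocyte-like class. Slc29a1, another adenosine carrier, was also found in BA-like nuclei and is given below.

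Each library had a pair of BA-like clusters, and Slc17a9 differed between them in the untreated and denervated libraries more than P2rx5 did. The untreated BA-like nuclei formed clusters of 3481 and 1271 nuclei, with Slc17a9 at 132 and 213 CPM and P2rx5 at 265 and 244 CPM. The sham clusters of 2607 and 907 nuclei had Slc17a9 at 67.7 and 75.5 CPM and P2rx5 at 167 and 127 CPM. The denervated clusters of 3123 and 2019 nuclei had Slc17a9 at 502 and 336 CPM, P2rx5 at 281 and 322 CPM and Adk at 351 and 255 CPM. Of the denervated pair, the cluster with more Slc17a9 and Adk was the shallower, at a median of 713 against 1432 UMIs. The cluster with more Slc17a9 was also the shallower in the untreated (1017 against 2046 UMIs) and sham (1339 against 1465 UMIs) libraries. Its leading genes included Hspa1a, Atf3 and Dnajb1 in the untreated library and Dnajb1, Atf3 and Jun in the sham library. The parts of depth and of these genes in the differences were not tested. Both denervated clusters were above every untreated and sham BA-like cluster in Slc17a9.

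EC-like nuclei of the untreated library, clustered again, showed that the 3 endothelial members were not spread alike. A capillary-like cluster (1830 nuclei) held Slc28a2 at 575 CPM (539 to 612), Adora2a at 218 CPM (196 to 241) and Entpd1 at 8.77 CPM (4.91 to 14.5). An arterial-like cluster (276 nuclei) held 199, 64.7 and 153 CPM of the same genes, and a venous-like cluster (76 nuclei) 426, 69.1 and 254 CPM. Arterial-like over capillary-like, the log2 ratio was −1.53 (−2.01 to −1.09) for Slc28a2, −1.75 (−2.64 to −0.99) for Adora2a and 4.12 (3.20 to 5.11) for Entpd1. Venous-like over capillary-like it was −0.43 (−0.95 to 0.04), −1.66 (−3.11 to −0.52) and 4.85 (3.84 to 5.90). Among the named clusters, CD39 transcripts were thus highest in arterial-like and venous-like nuclei and Adora2a transcripts in capillary-like ones and in the cluster of immediate-early genes. Unnamed clusters of 569 and 331 nuclei also held Adora2a at 218 CPM each, and Slc28a2 at 528 and 282 CPM. Both scored highest on the capillary list, at 0.87 with 2 markers and 1 with 4 markers. The capillary-like name itself rested on a score of 1.07 with 3 markers. CNT2 was lower in arterial-like nuclei, and its interval for venous-like against capillary-like nuclei held 0. A cluster high in immediate-early genes (356 nuclei) had Slc28a2 at 222 CPM and Adora2a at 238 CPM, that is, log2 ratios over capillary-like nuclei of −1.38 (−1.80 to −0.98) and 0.13 (−0.30 to 0.53). Among clusters left without a name, the shallowest (1294 nuclei, median 343 UMIs) had the highest Slc28a2, at 827 CPM. The sham library had no cluster that met the naming rule. A sham cluster of 240 nuclei that scored high on both the venous and the arterial list held Slc28a2 at 126 CPM, Adora2a at 21.0 CPM and Entpd1 at 267 CPM, against 205 to 881, 87.99 to 115 and 21.9 to 48.4 CPM in the other 5 sham clusters. In the denervated library an unnamed cluster of 900 nuclei held Entpd1 at 115 CPM (32 UMIs) and Slc28a2 at 465 CPM, against 18.4 to 47.9 CPM and 129 to 316 CPM in the other 3 clusters of at least 50 nuclei. A denervated cluster of 42 nuclei, which scored highest on the venous list, and an untreated cluster of 27 nuclei were left out as too small. Nt5e, low in EC-like nuclei as a whole, stood at 34.6 CPM (3 UMIs) in the untreated venous-like cluster against 2.34 CPM (4 UMIs) in the capillary-like one, and at 49.1 CPM (7 UMIs) in the sham cluster of 240 nuclei against 0 to 5.93 CPM in the other 5. These clusters were made from the same nuclei, so the ratios are descriptions.

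**Figure D3:**
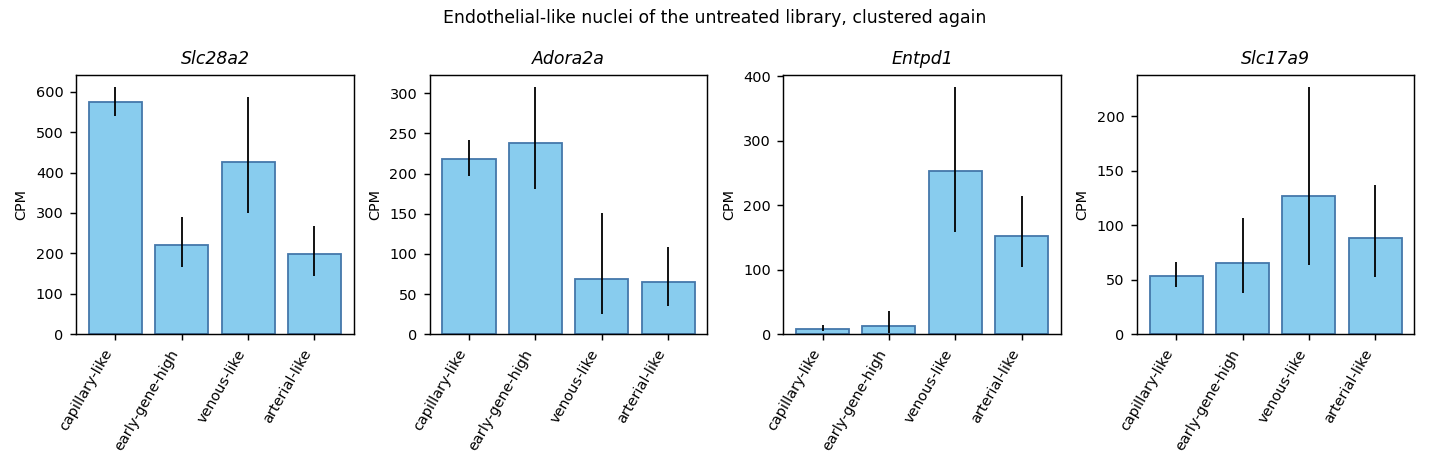
CPM (y axis, from 0) of Slc28a2, Adora2a, Entpd1 and Slc17a9 in the 4 named clusters of untreated EC-like nuclei (x axis), with 95% Poisson intervals. Clusters without a name are not drawn. Entpd1 rises from 8.77 CPM in capillary-like to 254 CPM in venous-like nuclei while Adora2a falls from 218 to 69.1 CPM.

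Denervated BAT was compared with untreated BAT to ask how the genes stand after loss of nerve input. As Slc17a9 and Slc28a2 were chosen by their pattern over classes and conditions, nothing is read from the counts of members called between libraries. In BA-like nuclei 1 of the 5 members tested was called, where 2.38% of all 9403 genes tested were. This was Slc17a9, at a log2 ratio of 1.501 (1.40 to 1.60), or 2.83-fold. The other 4 did not reach the fold: P2rx5 at 0.22 (0.13 to 0.31), Adora1 at 0.09 (−0.05 to 0.23), Adk at −0.21 (−0.30 to −0.12) and Slc28a2 at −0.62 (−1.15 to −0.12), the last at 8.74 and 13.5 CPM. In EC-like nuclei 2 of 6 were called, where 6.11% of genes were. Slc17a9 was higher by 1.51 (1.23 to 1.79) and Entpd1 by 1.41 (0.95 to 1.87), while Slc28a2 was at −0.86 (−1.05 to −0.67) and Adora2a at −0.72 (−1.03 to −0.42), both short of the fold. The clusters that made up the EC-like class differed between libraries, and so did the summed markers of other classes in EC-like nuclei. Immune markers summed to 23.0, 52.8 and 56.2 CPM there in the untreated, sham and denervated libraries, pericyte markers to 259, 326 and 423 CPM and brown markers to 451, 281 and 716 CPM. The part of these in the EC-like ratios was not tested. The Slc17a9 ratio of EC-like nuclei fell to 0.47 at a minimum of 500 detected genes. It fell to 0.76 when thinned to 500 UMIs, which kept 511 denervated and 3098 untreated nuclei. With background RNA subtracted no EC-like Slc17a9 UMIs were left in either library and no ratio could be had. For Slc28a2 the subtraction left 100.8 of 267 EC-like UMIs denervated and 1499 of 1739 untreated, and for Adora2a 61.3 of 105 and 562.1 of 620. The ratios of these 2 genes above, short of the fold, are without subtraction. Adora1 in EC-like nuclei was too low to enter the count, with 13 and 18 UMIs. In pericyte-like nuclei 1 of 6 was called, Slc17a9 at 1.81 (1.36 to 2.28), where 19.8% of genes were.

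Against the sham library a larger share of all genes was called in BA-like, EC-like and pericyte-like nuclei than against the untreated library. The pipeline of the sham library and the relation of its mice to the denervated ones are not given in the sources used here. Mitochondrial UMIs over all barcodes were 12.9% in the sham, 6.71% in the untreated and 2.95% in the denervated library. In BA-like nuclei 1 of 5 was called, where 16.6% of genes were. Slc17a9 was at 2.55 (2.39 to 2.71), or 5.85-fold, and P2rx5 at 0.96 (0.84 to 1.08), just under the fold. Adk was at 0.37 (0.26 to 0.48), Adora1 at −0.13 (−0.29 to 0.02) and Slc28a2 at −0.98 (−1.53 to −0.45). In EC-like nuclei 3 of 6 were called, where 14.6% of genes were. Slc17a9 was higher by 1.902 (1.60 to 2.203), but by 0.42 at a minimum of 500 detected genes and 0.77 when thinned to 500 UMIs, and P2rx5 by 2.10 (1.30 to 2.92), the latter from 31 and 25 UMIs in a class where it is low. Summed brown markers in EC-like nuclei moved the same way, at 716 CPM denervated and 281 CPM sham, and their part in this was not tested. Slc28a2 was lower, at −1.13 (−1.32 to −0.94), and Entpd1 was at 0.71 (0.29 to 1.13) and Adora2a at 0.25 (−0.08 to 0.58), both nearer to 0 than against the untreated library. In pericyte-like nuclei 3 of 4 were called, where 22.7% of genes were. Slc17a9 was at 2.74 (2.29 to 3.19), and the 2 others, Slc28a2 and Entpd1, rested on 4 against 29 and 8 against 8 UMIs.

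The 2 control libraries also differed from each other, although neither was denervated. Sham over untreated, 1 of 5 members was called in BA-like nuclei, where 14.0% of genes were, and it was again Slc17a9, lower at −1.05 (−1.22 to −0.88). It fell short of the fold under 5 alternatives: −0.9953 at a minimum of 500 detected genes, −0.9867 at a limit of 10% mitochondrial UMIs, −0.9979 without mitochondrial genes, −0.97 in nuclei of at least 1000 genes and −0.47 with background RNA subtracted. P2rx5 was at −0.74 (−0.86 to −0.63), Adk at −0.58 (−0.68 to −0.48) and Adora1 at 0.22 (0.08 to 0.36). In EC-like nuclei 1 of 6 was called, P2rx5 at −1.73 (−2.44 to −1.07), where 5.47% of genes were, and Adora2a at −0.97 (−1.17 to −0.77) fell just short. Summed brown markers in EC-like nuclei also stood lower in the sham than in the untreated library, at 281 and 451 CPM, and their part in the P2rx5 value was not tested. In pericyte-like nuclei 2 of 4 were called, where 11.8% of genes were, and they were Slc28a2 at 1.498 (0.11 to 3.22, 29 against 5 UMIs) and Entpd1 at −1.04 (−2.65 to 0.57, 8 against 8 UMIs). The 3 contrasts share libraries and are not independent.

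The level of Slc17a9, which was chosen by its pattern, was above both controls in the denervated library. The sham level in BA-like nuclei was, however, itself 0.484 of the untreated level. No difference between denervated and untreated nuclei was detectable in the shallowest BA-like bin. The mitochondrial share of BA-like UMIs, a sign of RNA quality, ran in the reverse order, at 3.16% untreated, 6.44% sham and 1.85% denervated. With nuclei of at most 10% mitochondrial UMIs the log2 ratio of Slc17a9 in BA-like nuclei was 1.57 denervated over untreated and 2.55 denervated over sham. Slc28a2 of denervated EC-like nuclei was also lower within bins of detected genes. From 200 to under 500 detected genes it was 340 CPM against 582 CPM untreated (log2 ratio −0.78, −0.997 to −0.56), and from 500 to under 1000 genes 181 against 518 CPM (−1.52, −2.06 to −1.02). Denervated EC-like nuclei were the shallowest, at a median of 355 UMIs against 652 and 504. By the measure given below, 166 of their 267 Slc28a2 UMIs could come from background RNA. In the untreated and sham libraries these were 239.8 of 1739 and 443.5 of 2024. Subtraction left 100.8 UMIs denervated, 1499 untreated and 1580 sham. The parts of depth and of background RNA in these differences were not tested.

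**Figure D4:**
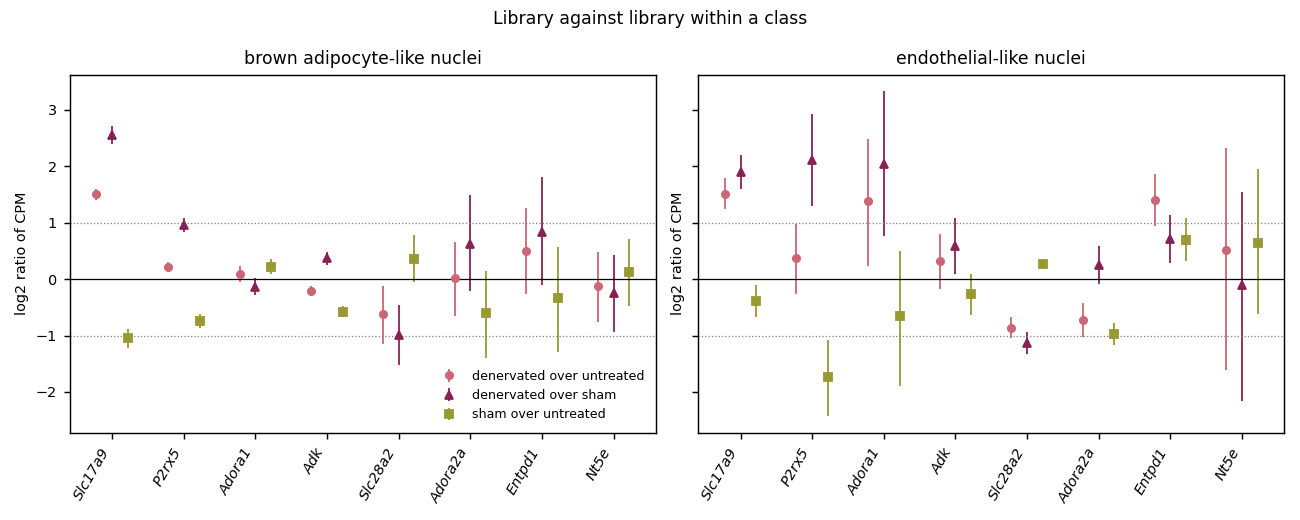
log2 ratio of CPM between 2 libraries (y axis) for the 8 genes (x axis) in BA-like (left) and EC-like (right) nuclei, with 95% intervals for counting error. Dotted lines mark a log2 ratio of 1 in either direction. Slc17a9 lies above 1 in both contrasts of the denervated library in both classes, and Adora1 in BA-like nuclei stays between −0.13 and 0.22 in all 3 contrasts.

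Shallow barcodes show which of the transcripts were found outside the nuclei kept. Barcodes under 200 detected genes were 1871, 988 and 5358 in the 3 libraries. Set over the kept nuclei, 4 of the 7 members tested were called in the untreated library, where 50.3% of genes were, 3 of 7 in the sham library, where 63.3% were, and 6 of 7 in the denervated library, where 32.0% were. P2rx5, Adora1 and Adk were lower in these barcodes in every library (log2 ratios from −3.93 to −1.95), where 48.7%, 63.1% and 21.4% of all genes were called lower and the median over all genes was −0.97, −1.33 and −0.22. Slc17a9 was at 636, 80.5 and 648 CPM there against 126, 64.8 and 393 CPM in kept nuclei. Slc28a2 was at 242, 206 and 375 CPM there. In the denervated library this exceeded the 294 CPM of the EC-like nuclei. Barcodes under 200 detected genes were taken as background RNA, and whether they held free RNA or shallow nuclei was not tested. Transcripts of nuclei could thus be among the UMIs expected from background RNA. With the summed markers of other classes taken as the measure, 9.16%, 10.97% and 4.37% of BA-like UMIs and 30.5%, 68.4% and 48.9% of EC-like UMIs could come from such RNA. Taking it off left Slc28a2 at 0 in BA-like nuclei of all 3 libraries and Slc17a9 at 0 in EC-like nuclei of the untreated and denervated libraries. In each of these groups the measure expected more UMIs than were seen, so the share was too high for that gene. The values of 0 are a limit of the measure and do not show that no transcript of these nuclei was present. The Slc17a9 UMIs expected from background RNA were 631 where 243 were seen in EC-like nuclei of the untreated library, 173 of 179 in the sham library and 287 against 193 in the denervated library. In untreated pericyte-like nuclei 63.3 were expected and 60 seen. In BA-like nuclei 507.3 of 1254 Slc17a9 UMIs were expected in the untreated library, 45.45 of 359 in the sham library and 148.9 of 2147 in the denervated library. P2rx5 kept 2236 of 2275 BA-like UMIs in the untreated library, 800.7 of 805 in the sham library and 1595 of 1601 in the denervated library.

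The rest of the pathway was described by 61 listed genes in 8 groups: release channels, nucleoside carriers, ectonucleotidases, P2X and P2Y receptors, adenosine receptors, salvage and breakdown, and synthesis. BA-like over EC-like, 14 of 29 genes tested were higher and 3 lower in the untreated library, 13 and 5 of 29 in the sham library, and 14 and 3 of 27 in the denervated library. Of all genes tested, 26.7%, 25.9% and 25.9% were higher and 18.6%, 19.2% and 17.8% lower. The median log2 ratio over the listed genes was 0.99, 0.64 and 1.05, beside 0.26, 0.16 and 0.20 over all genes tested. P2rx4, an ATP-gated channel, was highest in immune-like nuclei (283, 196 and 307 CPM) and, BA-like over EC-like, had log2 ratios of 2.72, 1.71 and 1.71. Enpp2, which encodes the secreted enzyme autotaxin, was highest in WA-like nuclei (266, 436 and 570.1 CPM), with log2 ratios of BA-like over EC-like nuclei of 2.75, 3.52 and 2.80. Slc29a1, the carrier ENT1 that lets adenosine pass in both directions, was highest in pericyte-like nuclei, at 297, 144 and 121 CPM. BA-like nuclei held it at 85.6, 45.7 and 71.1 CPM and EC-like nuclei, the class of Slc28a2, at 40.8, 29.3 and 27.6 CPM. Its log2 ratio of BA-like over EC-like nuclei was 1.07, 0.64 and 1.37.

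Of the 15 genes of salvage and breakdown, 10, 10 and 9 were tested BA-like over EC-like in the 3 libraries, and 3, 4 and 3 of these were higher and 2, 3 and 3 lower. Their median log2 ratio was 0.18, −0.06 and 0.68, beside 0.26, 0.16 and 0.20 over all genes tested. Xdh, xanthine dehydrogenase, stood at 784, 1589 and 504 CPM in EC-like and 163, 209 and 216 CPM in BA-like nuclei. In the denervated library WA-like nuclei were higher still, at 652 CPM. Its log2 ratio of BA-like over EC-like nuclei was −2.26 (−2.36 to −2.17), −2.93 (−3.02 to −2.83) and −1.22 (−1.38 to −1.06). Gda, guanine deaminase, named after its values were seen, had ratios of −4.43, −3.87 and −3.68. Impdh1, an enzyme of guanine nucleotide synthesis, was highest in BA-like nuclei, at 326, 248 and 315 CPM. In BA-like nuclei none of 26 listed genes was called denervated over untreated, where 2.38% of all genes tested were, with a median log2 ratio of −0.04 beside −0.02 over all genes tested. Denervated over sham, 2 of 27 were higher and 1 lower, where 16.6% of all genes tested were called, with a median of 0.15 beside 0.01.

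The genes most like Slc17a9 and Slc28a2 were ranked by Pearson's r of log2(CPM + 1) over 17 groups of class and library, among 11187 genes. The groups share libraries and depth, so r is a description. Genes ranked this way share the pattern through their choice, so their levels in the same groups support nothing. The 5 nearest to Slc17a9 were Gm39317 (r = 0.869), Rngtt, Gm13944, Cntnap2 and Gm4022 (r = 0.834). Like Slc17a9, Gm4022 stood in BA-like nuclei at 93.6 CPM untreated, 40.0 CPM sham and 161 CPM denervated. The 5 nearest to Slc28a2 were Rsad2 (r = 0.968), Adgrl4, Fgd5, Sema6a and Afap1l1 (r = 0.949). Rsad2 stood at 567, 677 and 470 CPM in EC-like nuclei and at 20.1, 28.2 and 29.3 CPM in BA-like nuclei.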

How the data were processed

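Nuclei were profiled with the BD Rhapsody 3′ assay. The authors deposited 1 table of UMI counts per library, with barcodes in rows and genes in columns. Per the file headers the untreated and denervated tables came from the BD WTA Rhapsody pipeline, version 1.9 for nuclei, on GRCm38 with GENCODE annotation. The sham table has no such header, and its pipeline is not given in the sources used here. The submitters' processing notes name GRCh38 and Seurat 4.0.6. The tables precede the study's own removal of background RNA. Gene positions are from GENCODE on GRCm38.

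Barcodes under 200 detected genes or above 50% mitochondrial UMIs were left out. A barcode was removed as a doublet when each of 2 exclusive marker lists had 3 or more UMIs and the lesser reached 25% of the greater. Each library was clustered separately on log2 values with a pseudocount of 1 (2000 variable genes without the members and pathway genes, 30 components, 20 neighbours, Louvain resolution 0.5; resolution 1 for EC-like nuclei). Python 3.11.15, numpy 2.4.6, scipy 1.17.1, scikit-learn 1.9.0 and python-igraph 0.11.9 were used, and the ratios were tested on simulated data. CPM were summed UMIs of a class per 1000000, with exact Poisson intervals. Thinning drew 500 UMIs from each nucleus and left out nuclei with fewer. Shares had Clopper-Pearson intervals and ratios conditional binomial intervals, all at 95% and for counting error only. A count of 0 was given the limit of 3 counts. No test was possible with 1 library per condition. The members and lists were chosen with earlier results of these data known. Named genes were the 8 members, the highest gene of a pathway list, listed genes called in both denervated contrasts of BA-like nuclei, and the 5 genes most like Slc17a9 and Slc28a2. Outside this rule, Gda, P2rx7, P2rx1, Ampd3 and Alpl were named after their values were seen.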

Additional observations from a re-analysis of the deposited data

Results flagged for a closer look

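Barcodes under 200 detected genes were left out of every nucleus class, and 4 levels in them exceeded those in the kept nuclei of the same library by more than 2-fold. In the untreated library Slc17a9 had a log2 ratio over kept nuclei of 2.34 (2.16 to 2.51), from 316 UMIs. In the denervated library the ratio was 3.02 (2.80 to 3.24) for Slc28a2, from 327 UMIs, 2.34 (1.94 to 2.73) for Adora2a, from 86 UMIs, and 1.19 (0.64 to 1.70) for Entpd1, from 39 UMIs. Over all genes tested the median log2 ratio was −0.97 in the untreated and −0.22 in the denervated library. Of the 7 members tested, 1 was called higher in the untreated and 3 in the denervated library, where 1.54% and 10.5% of all genes tested were. The cause was not tested.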

How the results depend on the processing

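No paired analysis was possible because the labels give no replicate numbers and each condition had 1 library. Of 1783 alternative values, 1406 stayed within counting error (or within 1.5 times, for counts), 373 moved and 4 reversed. The cause was not tested, apart from the filters, which change the number of genes tested. Ambient subtraction left Slc17a9, Slc28a2 or Adora2a at 0 in some groups, and some settings left too few UMIs; these have no value. The limit of at least 1000 detected genes was chosen after seeing the data.

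The log2 ratio of Slc28a2 in BA-like over EC-like nuclei was −4.98, −4.89 and −4.43 (untreated, sham, denervated) with classes from marker UMIs. It was −5.55 in the sham library at no more than 10% mitochondrial UMIs, −3.95 in the denervated library at a minimum of 500 genes and −4.73 in the untreated library at 1000 genes. The difference of mean log2 values per nucleus was −1.03, −1.15 and −0.51. Such a mean log2 difference averages log2(counts per 10000 + 1), with nuclei without a UMI entering as 0. It is on another scale than a log2 ratio of CPM, and the sizes cannot be compared. Slc17a9, denervated over untreated in BA-like nuclei, was 2.09 after ambient subtraction, 1.40 thinned to 500 UMIs, 0.56 as a mean log2 difference and 1.17 at 1000 genes. Denervated over sham it was 0.93 as a mean log2 difference and 2.14 at 1000 genes. Reversed were Adora1, denervated over untreated in EC-like nuclei (−0.57, thinned), and 3 pericyte-like values: Slc28a2 denervated over sham (0.23, thinned), Entpd1 sham over untreated (2.33, minimum of 500 genes) and Slc28a2 sham over untreated (−0.0516, doublets kept).

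Members called, denervated over untreated, became 1 in EC-like nuclei at 50 CPM, and in pericyte-like nuclei 5 (500 genes), 2 (resolution 1) and 3 (thinned). Denervated over sham they became 2 in BA-like nuclei with doublets kept, at resolution 1, without mitochondrial genes, thinned and at 1000 genes. They became 1 in EC-like nuclei (thinned), and in pericyte-like nuclei 1 (ambient, and 50 CPM) and 5 (1 UMI in each group). Sham over untreated they became 0 in BA-like nuclei at 500 genes, 10% mitochondrial UMIs, ambient subtraction, without mitochondrial genes and at 1000 genes. In EC-like nuclei they became 3 (500 genes), 2 (marker classes, ambient, thinned) and 0 (50 CPM), and in pericyte-like nuclei 1 (10% mitochondrial UMIs, resolution 1, ambient), 0 (thinned, 50 CPM) and 4 (1 UMI).

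All genes called in BA-like over EC-like nuclei were 2138, 2182 and 1967 at 50 CPM and 8457, 7934 and 7396 at 1 UMI. Denervated over untreated they were 349 (marker classes), 400 (thinned), 45 (50 CPM) and 3618 (1 UMI) in BA-like nuclei. In EC-like nuclei they were 1803 (500 genes), 2052 (ambient), 1353 (thinned), 105 (50 CPM) and 3628 (1 UMI), and in pericyte-like nuclei 3667 (500 genes) and 366 (50 CPM). Denervated over sham they were 538 (50 CPM) and 5677 (1 UMI) in BA-like nuclei, and 584 and 4034 in pericyte-like nuclei. In EC-like nuclei they were 2928 (500 genes), 3761 (ambient), 2336 (thinned), 408 (50 CPM) and 4484 (1 UMI). Sham over untreated they were 508 (50 CPM) and 4383 (1 UMI) in BA-like nuclei. In EC-like nuclei they were 931 (500 genes), 821 (10% mitochondrial UMIs), 1637 (ambient), 779 (thinned), 154 (50 CPM) and 3131 (1 UMI), and in pericyte-like nuclei 1779 (thinned), 209 (50 CPM) and 2954 (1 UMI).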

Other observations

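Immune-like nuclei carried receptors for extracellular nucleotides, at low counts. P2rx7, the ATP-gated channel of macrophages, stood at 189 CPM (10 UMIs) in the untreated and 253 CPM (37 UMIs) in the denervated library, against 1.72 and 2.85 CPM in BA-like nuclei. P2ry6, a receptor for UDP, stood at 189, 78.3 and 88.7 CPM from 10, 4 and 13 UMIs. In the sham library P2rx7 was at 287 CPM (24 UMIs) in Schwann-like nuclei, and P2rx1 was at 191 CPM (60 UMIs) in smooth muscle-like nuclei with 0 UMIs in pericyte-like nuclei. Pericyte-like nuclei were highest in Ampd3, an AMP deaminase, at 349, 880 and 246 CPM. They were also highest in Alpl, the phosphatase that can cut AMP outside the cell, at 227, 133 and 189 CPM, in a class where Nt5e had 0, 4 and 0 UMIs. P2rx7, P2rx1, Ampd3 and Alpl were named after their values were seen.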
